A study of Mus musculus with 11 samples.

Results

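The genes described here are 30 markers of thymocytes and T cells, listed by symbol, out of 56691 genes in the count table. They encode the T cell receptor complex (Cd3d, Cd3e, Cd3g, Cd247, Trac, Trbc1 and Trbc2), the coreceptors (Cd4, Cd8a and Cd8b1), proteins of receptor signalling (Ptprc, Lck, Zap70, Lat and Themis), further surface proteins (Cd2, Cd5, Cd27 and Thy1), the recombination machinery and the pre-receptor (Rag1, Rag2, Dntt and Ptcra), and regulators of the lineage (Tcf7, Bcl11b, Satb1, Ets1, Gata3, Ikzf1 and Lef1). All 30 symbols matched a row. Because the samples were sorted epithelial cells, the levels of these genes serve as a measure of thymocyte RNA carried through the sort. The measure is not exclusive, since at least 7 of the genes are also known from cells outside the T lineage.

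The samples were EpCAM+ thymic epithelial cells of NOD mice, the non-obese diabetic strain, aged 4 to 8 weeks, after magnetic depletion of cells bearing CD45. RNA sequencing gave 11 libraries, of which 3 were homozygous for the wild-type Aire allele (WT/WT), 5 carried 1 copy of the Aire variant R249C (WT/R249C) and 3 carried 2 copies (R249C/R249C). Aire is a transcriptional regulator of medullary thymic epithelium, and R249C replaces an amino acid in its SAND domain. The labels name 2 batches. Batch A held WT/WT replicate 1, WT/R249C replicates 1, 2 and 3 and all 3 R249C/R249C libraries, and batch B held WT/WT replicates 2 and 3 and WT/R249C replicates 4 and 5. For WT/R249C replicates 4 and 5 the genotype field reads R249C/R249C and the title reads WT/R249C, and they were grouped by title. The titles name the libraries as biological replicates, but no source used here tells how many mice stand behind each.

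As background, thymocytes develop in close contact with thymic epithelium: they rearrange their receptor genes with the Rag1 and Rag2 recombinase, pass through a stage with both coreceptors, and are selected on the peptides that epithelial cells present. The receptor chains signal through the CD3 proteins and the zeta chain, which the kinase Lck phosphorylates. The kinase Zap70 binds the phosphorylated chains, and the adaptor Lat carries the signal on. Ptprc encodes CD45, the surface phosphatase of nucleated blood cells on which the depletion was based.

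Cd3g, Cd3d and Cd3e lie in 1 cluster on chromosome 9. They are shown because Cd3g alone among them did not overlap between WT/WT and the variant libraries. In the mouse build GRCm38.p6, from which the RefSeq sequences below come, Cd3g and Cd3d start 1355 bases apart on opposite strands, and Cd3d and Cd3e start 27825 bases apart. The windows run from 250 bases before to 50 bases after each start. They are Cd3g at chr9:44980382-44980681 on the minus strand, Cd3d at chr9:44981536-44981835 on the plus strand and Cd3e at chr9:45009562-45009861 on the minus strand, each written 5′ to 3′ on its own strand. The counts were made on build mm39, so these were looked up by symbol alone, and 22 of the 30 genes had a window in the table.
Cd3g promoter: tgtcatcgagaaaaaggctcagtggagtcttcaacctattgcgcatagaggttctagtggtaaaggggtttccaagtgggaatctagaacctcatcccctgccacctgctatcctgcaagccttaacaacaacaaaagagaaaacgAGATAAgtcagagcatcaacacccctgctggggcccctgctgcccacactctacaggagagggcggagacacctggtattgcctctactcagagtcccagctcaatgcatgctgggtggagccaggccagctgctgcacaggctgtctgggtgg
Cd3d promoter: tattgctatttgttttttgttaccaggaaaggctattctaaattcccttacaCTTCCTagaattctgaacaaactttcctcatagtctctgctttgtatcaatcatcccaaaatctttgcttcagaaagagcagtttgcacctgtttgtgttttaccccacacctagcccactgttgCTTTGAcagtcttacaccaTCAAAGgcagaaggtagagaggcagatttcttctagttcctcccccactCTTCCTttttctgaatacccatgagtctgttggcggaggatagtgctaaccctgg
Cd3e promoter: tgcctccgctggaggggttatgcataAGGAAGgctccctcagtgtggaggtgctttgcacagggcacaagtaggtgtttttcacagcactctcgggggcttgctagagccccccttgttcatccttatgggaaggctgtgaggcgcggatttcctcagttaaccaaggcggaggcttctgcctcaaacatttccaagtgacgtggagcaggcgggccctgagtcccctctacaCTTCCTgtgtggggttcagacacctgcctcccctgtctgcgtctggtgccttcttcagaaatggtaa
Capitals mark matches on either strand to the letters AGATAA for the GATA factors, TGTGGT for the RUNX factors, CTTTGA for the TCF/LEF factors and AGGAAG for the ETS factors, none of which overlapped another. The Cd3g window held 1 GATA match and none to the other 3. The Cd3d window held 2 TCF/LEF and 2 ETS matches, and the Cd3e window held 2 ETS matches. E boxes (CANNTG), left in lower case, numbered 4, 1 and 2 in the Cd3g, Cd3d and Cd3e windows. Among 32851 mouse promoter windows of the same length, 11.2% held the GATA letters, 16.8% the RUNX letters, 16.0% the TCF/LEF letters, 35.4% the ETS letters and 72.3% an E box. These matches describe the letters only.

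Library totals ran from 60560348 to 182319976 counts. Aire was detected in every library, from 173.9 to 858.3 CPM (counts scaled by the library total, in the usual unit). A count per gene does not read the R249C codon, so it does not check the genotype. All 12 epithelial markers examined, among them Epcam, Krt8, Foxn1 and Psmb11, had counts in all 11 libraries and summed to between 24236.8 and 37660.0 CPM. WT/R249C replicates 3 and 5 had the fewest genes with a count, 22101 and 23073. Some results below, but not all, are also given without these libraries.

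The 30 genes together made up a small share of every library and were, on average, higher in WT/WT than in either variant genotype, with overlapping values. They summed to 922.3, 614.9 and 756.3 CPM in WT/WT replicates 1 to 3. The sums were 554.3, 442.8, 747.6, 618.1 and 355.3 CPM in WT/R249C replicates 1 to 5, and 669.1, 524.4 and 430.2 CPM in R249C/R249C replicates 1 to 3. WT/WT replicate 1 had the highest sum and WT/R249C replicate 5 the lowest, and the genotypes overlapped. The means were 764.5 ± 153.9 CPM (SD, n = 3) in WT/WT, 543.6 ± 152.4 CPM (SD, n = 5) in WT/R249C and 541.3 ± 120.4 CPM (SD, n = 3) in R249C/R249C. Expressed as ratios to WT/WT, these were 0.711 for WT/R249C and 0.708 for R249C/R249C, without a test. Within batch A alone the log2 ratios were -0.67 and -0.77, against WT/WT replicate 1 only. In bulk RNA, fewer thymocytes in a sample, less RNA per thymocyte and expression of these genes in other cells cannot be told apart.

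**Figure D1:**
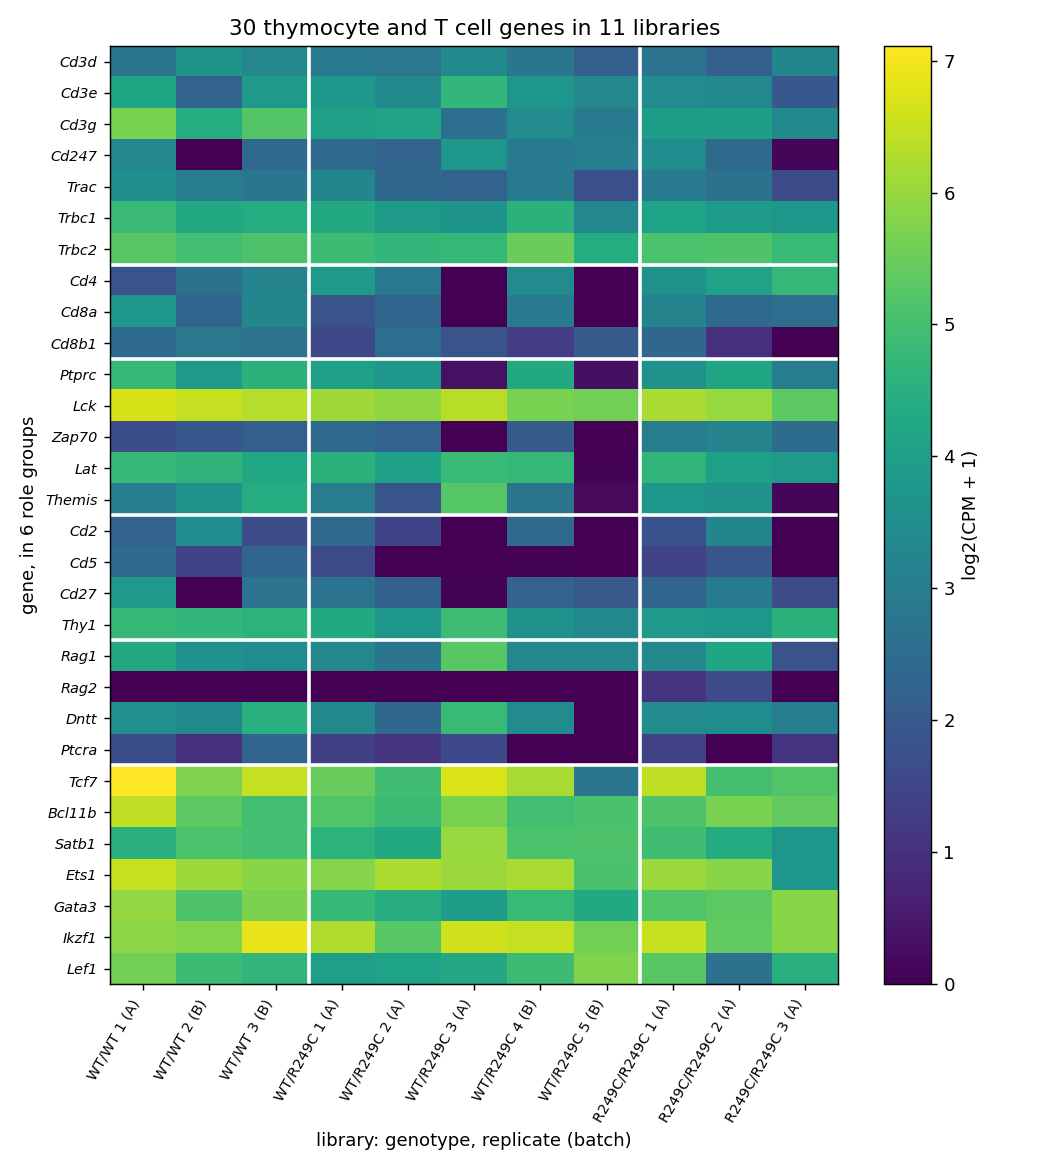
Level of each of the 30 genes (rows, in 6 role groups parted by white lines) in each of the 11 libraries (columns, with the batch in brackets), as log2(CPM + 1). WT/R249C replicates 3 and 5 hold the most genes at 0, 6 and 8 of 30, and Rag2 is at 0 in 9 of 11 libraries.

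The losses of detection were not spread evenly. R249C/R249C replicate 1 had a count for all 30 genes, and 7 other libraries lacked between 1 and 3 of them. R249C/R249C replicate 3 lacked 4, WT/R249C replicate 3 lacked 6 and WT/R249C replicate 5 lacked 8. The sparse library WT/R249C replicate 3 nevertheless held the highest value of the 11 for 8 genes and the lowest, ties included, for 8 others. WT/WT replicate 1 held the highest value for 12 genes.

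Levels of different genes can be compared only per length, here as CPM per kilobase of exon averaged over the 11 libraries. On that scale Trbc2, a constant gene of the receptor beta chain, stood highest at 44.7, followed by the transcription factor gene Tcf7 at 23.7, the kinase gene Lck at 23.3 and Trbc1 at 22.5. At the other end were Ptprc at 0.723, Cd5 at 0.312 and Rag2 at 0.0842. The genes of 1 receptor complex were spread widely, with Cd3g at 5.53, Cd3d at 3.78, Cd3e at 2.78 and Cd247 at 1.07. Exon lengths came from an annotation of another build and were used for length only.

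**Figure D2:**
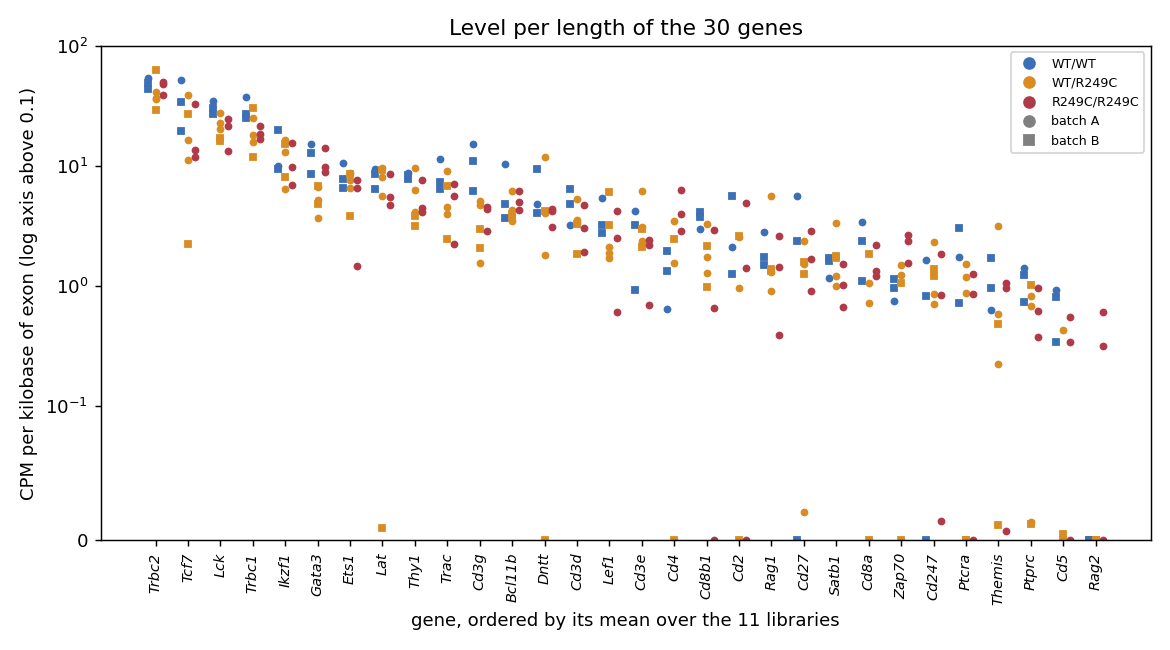
CPM per kilobase of exon (log axis above 0.1, linear below) for each of the 30 genes, ordered by the mean over libraries; each point is 1 library, coloured by genotype and shaped by batch. The mean falls from 44.7 for Trbc2 to 0.0842 for Rag2.

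Of the CD3 cluster, only Cd3g did not overlap between WT/WT and the variant libraries. Cd3g, which encodes the gamma chain of CD3, was at 50.0, 20.2 and 36.0 CPM in WT/WT, at 15.5, 16.7, 5.09, 9.73 and 6.75 CPM in WT/R249C, and at 14.8, 14.5 and 9.49 CPM in R249C/R249C. Every WT/WT library lay above all 8 variant libraries, the nearest values being 20.2 and 16.7 CPM. The means were 35.4 ± 14.9 CPM (SD, n = 3), 10.8 ± 5.17 CPM (SD, n = 5) and 12.9 ± 2.96 CPM (SD, n = 3), in the same order. Cd3d, which encodes the delta chain, was at 5.82, 11.8 and 8.83 CPM in WT/WT, at 6.4, 6.07, 9.58, 5.97 and 3.37 CPM in WT/R249C, and at 5.51, 3.49 and 8.67 CPM in R249C/R249C. Cd3e, which encodes the epsilon chain, was at 17.4, 3.78 and 13.1 CPM in WT/WT, at 12.8, 9.66, 25.3, 12.3 and 8.72 CPM in WT/R249C, and at 9.82, 9.03 and 2.85 CPM in R249C/R249C. For Cd3d and Cd3e the genotypes overlapped. Of the counts on these 3 genes, Cd3g took 56.5% to 68.3% in the WT/WT libraries and 12.7% to 53.7% in the variant libraries. This share uses the same Cd3g values, so its lack of overlap is not a separate result. WT/R249C replicate 3 had the lowest share, with Cd3g at 5.09 and Cd3e at 25.3 CPM.

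The remaining genes of the receptor complex overlapped between WT/WT and each variant genotype, apart from Trbc1 in R249C/R249C. Cd247, the gene of the zeta chain, was at 8.83, 0 and 4.42 CPM in WT/WT, and it ranged from 3.8 to 12.4 CPM in WT/R249C and from 0.0761 to 9.92 CPM in R249C/R249C. Trac, the constant gene of the alpha chain, averaged 7.87 ± 2.52 CPM in WT/WT (SD, n = 3), 5.06 ± 2.44 CPM in WT/R249C (SD, n = 5) and 4.64 ± 2.3 CPM in R249C/R249C (SD, n = 3). Trbc2 averaged 33.9 ± 3.48, 28.6 ± 9.13 and 31.8 ± 4.09 CPM in the same order and n, with values in all libraries between 20.1 and 44.0 CPM. The highest and lowest library thus lay closer, as a ratio, than for any other gene of the complex. Trbc1 was at 27.9, 18.8 and 20.2 CPM in WT/WT, at 18.8, 13.6, 11.9, 22.6 and 8.96 CPM in WT/R249C, and at 16.3, 13.8 and 12.7 CPM in R249C/R249C. Trbc1 and Trbc2 are near-identical in their coding exons, so the division of reads between them is uncertain.

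**Figure D3:**
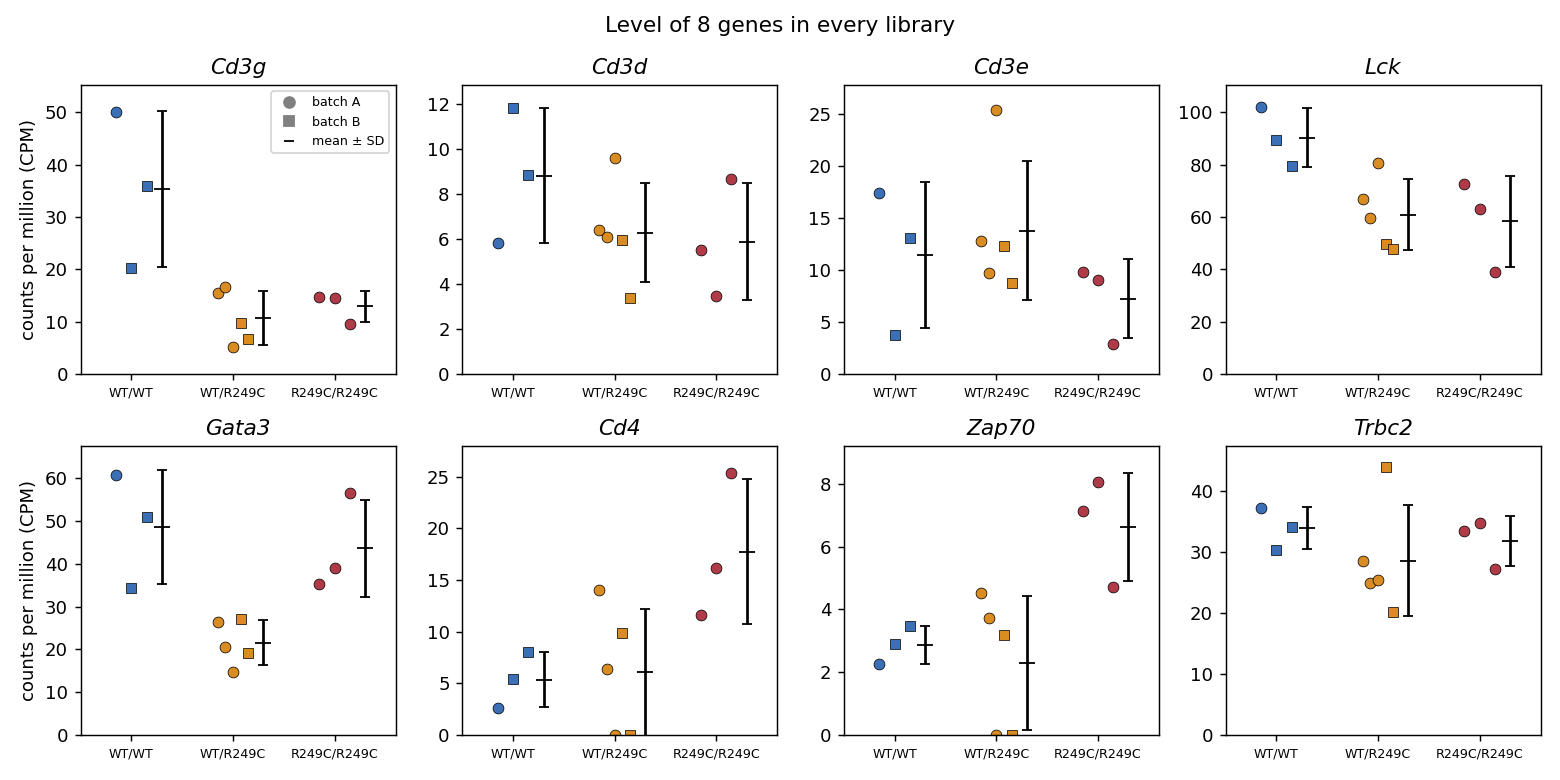
CPM of 8 of the genes in every library, by genotype (circles batch A, squares batch B), with the mean and SD as a black bar beside each group; a lower SD bar that would pass below 0 ends at the axis. The 3 WT/WT values of Cd3g lie above all 8 variant values, and the R249C/R249C values of Cd4 and Zap70 lie above those of WT/WT.

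The coreceptor genes were low and gave no common direction. Cd4 was at 2.61, 5.43 and 7.99 CPM in WT/WT, at 14.0, 6.35, 0, 9.88 and 0 CPM in WT/R249C, and at 11.6, 16.2 and 25.4 CPM in R249C/R249C. All R249C/R249C values lay above all WT/WT values, and both zeros were in the sparse libraries WT/R249C replicates 3 and 5. Cd8a was at 12.5, 4.03 and 8.68 CPM in WT/WT, at 2.63, 3.87, 0, 6.75 and 0 CPM in WT/R249C, and at 8.0, 4.43 and 4.89 CPM in R249C/R249C, with the same libraries at 0. Cd8b1 averaged 5.37 ± 0.824 CPM in WT/WT (SD, n = 3) against 1.77 ± 2.27 CPM in R249C/R249C (SD, n = 3), where replicate 3 was at 0. R249C/R249C replicate 3 therefore had the highest Cd4 value of all libraries and no count for Cd8b1. Cd8a and Cd8b1 encode the 2 chains of the CD8 coreceptor.

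In receptor signalling, Lck stood highest per kilobase of exon, at 23.3 CPM against 6.92 for Lat, the next of the group. This kinase gene, whose product binds the tails of CD4 and CD8, was at 102.1, 89.3 and 79.6 CPM in WT/WT, at 67.0, 59.5, 80.7, 49.9 and 47.8 CPM in WT/R249C, and at 72.8, 63.2 and 39.2 CPM in R249C/R249C. The R249C/R249C libraries were all below WT/WT, and of the WT/R249C libraries only replicate 3, at 80.7 CPM, reached the WT/WT range. Zap70, the kinase gene whose product binds the phosphorylated CD3 and zeta chains, was at 2.26, 2.89 and 3.46 CPM in WT/WT, at 4.53, 3.73, 0, 3.2 and 0 CPM in WT/R249C, and at 7.13, 8.06 and 4.7 CPM in R249C/R249C. As with Cd4, R249C/R249C lay above WT/WT without overlap, and the zeros were in the same sparse libraries. Ptprc was at 26.2, 13.6 and 22.7 CPM in WT/WT, at 15.2, 12.6, 0.248, 18.8 and 0.217 CPM in WT/R249C, and at 11.5, 17.6 and 6.95 CPM in R249C/R249C. The gene of the depleted antigen was thus near 0 in both sparse libraries and overlapped between genotypes. Lat ranged from 13.1 to 26.9 CPM in all libraries but WT/R249C replicate 5, at 0.0241 CPM. Themis, a gene needed for thymocyte selection, ranged from 0.0761 CPM in R249C/R249C replicate 3 to 37.0 CPM in WT/R249C replicate 3.

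Of the other surface proteins, Thy1 stood highest per kilobase of exon, at 6.2 CPM against 1.97 for Cd2. Thy1, a glycoprotein of thymocytes that fibroblasts and neurons also carry, was at 26.1, 25.1 and 23.4 CPM in WT/WT, at 18.8, 12.4, 29.0, 11.6 and 9.48 CPM in WT/R249C, and at 13.4, 12.4 and 22.9 CPM in R249C/R249C. R249C/R249C did not reach WT/WT, though the 22.9 CPM of replicate 3 lay close to the lowest WT/WT value of 23.4 CPM, and WT/R249C replicate 3 exceeded every WT/WT library. Cd5, a receptor that dampens receptor signalling, was detected in all 3 WT/WT libraries, from 1.69 to 4.62 CPM, and was at 0 in 3 of the 5 WT/R249C libraries. Cd2, an adhesion receptor, ranged from 0 to 9.91 CPM, and Cd27, a costimulatory receptor, from 0 to 13.1 CPM, both with overlap between all genotypes.

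The recombination genes differed sharply among themselves. Rag1 was detected in all libraries, from 2.58 CPM in R249C/R249C replicate 3 to 37.1 CPM in WT/R249C replicate 3. Rag2, its partner in the recombinase, was at 1.09 and 2.09 CPM in R249C/R249C replicates 1 and 2 and at 0 in the other 9. A count of 0 allows up to 3 counts, which was between 0.0165 and 0.0495 CPM over the 11 libraries and covers counting error only. Dntt, which encodes the polymerase that adds bases at receptor gene joins, was at 11.1, 9.3 and 21.7 CPM in WT/WT and averaged 8.99 ± 1.56 CPM in R249C/R249C (SD, n = 3). In WT/R249C it ran from 0 in replicate 5 to 27.2 CPM in replicate 3. Ptcra, the gene of the pre-receptor alpha chain, was at 2.24, 0.94 and 3.95 CPM in WT/WT, at 1.52, 1.13, 1.96, 0 and 0 CPM in WT/R249C, and at 1.62, 0 and 1.1 CPM in R249C/R249C. Its zeros in WT/R249C were replicates 4 and 5, which are both from batch B.

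The 7 regulators together summed to 402.0 ± 96.4 CPM in WT/WT (SD, n = 3), 297.3 ± 81.9 CPM in WT/R249C (SD, n = 5) and 285.5 ± 79.5 CPM in R249C/R249C (SD, n = 3). Gata3, a transcription factor needed for thymocyte commitment and for the CD4 lineage, was at 60.7, 34.3 and 51.0 CPM in WT/WT, at 26.4, 20.6, 14.6, 27.1 and 19.1 CPM in WT/R249C, and at 35.2, 39.1 and 56.5 CPM in R249C/R249C. All 5 WT/R249C libraries lay below all 6 libraries of the other genotypes, the nearest values being 27.1 and 34.3 CPM. Tcf7, a factor downstream of Notch signalling in early thymocytes, was at 137.2, 51.9 and 88.9 CPM in WT/WT, at 42.9, 29.7, 102.6, 71.7 and 5.87 CPM in WT/R249C, and at 86.0, 31.0 and 35.5 CPM in R249C/R249C, with overlap throughout. Bcl11b, which holds cells in the T lineage, was at 85.1, 39.2 and 30.2 CPM in WT/WT, so that replicate 1 alone lay above the 28.5 to 50.6 CPM of the variant libraries. Satb1, a chromatin organiser, ranged from 12.7 to 64.2 CPM, Ets1 from 12.4 to 90.5 CPM, Ikzf1 from 37.3 to 115.6 CPM and Lef1 from 5.4 to 53.4 CPM, all overlapping between genotypes. Gata3, Satb1, Ets1, Ikzf1 and Lef1, like Thy1 and Ptprc, are also known from cells outside the T lineage. Without these 7 the sums of the other 23 genes averaged 461.0 ± 118.7 CPM in WT/WT (SD, n = 3), 306.6 ± 111.6 CPM in WT/R249C (SD, n = 5) and 320.5 ± 74.9 CPM in R249C/R249C (SD, n = 3). The other 23 were not shown to be exclusive to T cells, so these sums are not specific to that lineage.

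In R249C/R249C against WT/WT, Cd3g and Lck had the lowest unadjusted p of the 30 genes, both with lower levels in R249C/R249C, and none passed the test. The quasi-likelihood test of edgeR, with batch as a term and Benjamini-Hochberg adjustment over 26980 genes, called 0 of the 29 genes that passed the low-count filter, where it called 0% of all genes. At an unadjusted p under 0.05 there were 2 genes, both lower, against 1.51% of all genes in that direction. DESeq2 called 1 gene lower, Ptcra, against 0.997% of all genes, and limma voom called 0. The fitted log2 fold change was below 0 for 26 of the 29 genes, or 89.7%, against 51.0% of all genes, and its median was -0.79 against -0.02. In 5 genes (Cd3g, Trbc1, Cd8b1, Lck and Thy1) every R249C/R249C library lay below every WT/WT library, which held for 4.68% of all genes. In 2 genes (Cd4 and Zap70) every one lay above, which held for 3.42%. Batch A holds no WT/WT library besides replicate 1. Without it 20 of 30 genes tested had a fold change below 0, against 51.2% of all genes, with a median of -0.57 against -0.03. That fit links R249C/R249C and WT/WT across the batches only through WT/R249C, the libraries with contradicting labels included.

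The named genes of that comparison were the 6 of lowest unadjusted p. Cd3g had a log2 fold change of -1.82 (SE 0.57, 95% interval -3.11 to -0.53, unadjusted p = 0.0109, edgeR adjusted p = 1), and its DESeq2 adjusted p was 0.103. Lck had -0.86 (SE 0.27, interval -1.48 to -0.24, unadjusted p = 0.0121, edgeR adjusted p = 1), with a DESeq2 adjusted p of 0.257. Both intervals lay below 0, while the adjusted p gave no call. Thy1 was at -1.02 (SE 0.46, interval -2.05 to 0.01) and Trbc1 at -0.68 (SE 0.47, interval -1.74 to 0.37), which was -0.22 without WT/WT replicate 1. Bcl11b was at -0.59 (SE 0.33, interval -1.35 to 0.16), and without the same library it was at 0.14, so that 1 library set its sign. Ptcra was at -8.51 (SE 4.56, interval -18.83 to 1.82), and DESeq2 with the batch term gave an adjusted p of 0.0269. Without the term the fitted value was -1.32. With the term, but without both WT/R249C replicates 4 and 5, which were at 0, it was -1.29. Without only replicate 4 or only replicate 5 it was -5.01 or -5.16. For Cd4 and Zap70 the fitted values were 1.87 (SE 2.72) and 0.97 (SE 2.57), with errors larger than the values. Both genes are named because of their lack of overlap, seen in the data. With WT/R249C replicates 4 and 5, of contradicting labels, left out, the values were 2.75 and 1.55. With these libraries counted as R249C/R249C they were 0.69 and -0.03. Replicate 5 was at 0 for both genes, so under that grouping the lack of overlap would be lost.

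In WT/R249C against WT/WT, Cd3g, Gata3, Lck, Thy1 and Bcl11b had the lowest unadjusted p, again with lower levels in the variant. This comparison shares the 3 WT/WT libraries with the one before. edgeR called 0 of 29 genes, where it called 0% of all genes, and 5 genes had an unadjusted p under 0.05, all lower, against 1.57% of all genes in that direction. DESeq2 called 3 genes lower, Cd3g, Gata3 and Ptcra, against 0.495% of all genes, and limma voom called 0. The fold change was below 0 for 25 of 29 genes, or 86.2%, against 48.5% of all genes, and the median was -0.69 against 0.02. Groups did not overlap in 2 genes, Cd3g and Gata3, both lower in WT/R249C, against 1.83% of all genes, and in 0 genes in the other direction, against 1.10%. Without the sparse replicates 3 and 5, which was chosen after seeing the data, 23 of 29 genes were below 0, against 43.2% of all genes. The median was -0.49 against 0.12 for all genes.

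Cd3g had a log2 fold change of -1.85 (SE 0.45, 95% interval -2.86 to -0.84, unadjusted p = 0.00255, edgeR adjusted p = 1) in WT/R249C, and its DESeq2 adjusted p was 0.00712. It was -2.01 within batch A, -1.72 within batch B, and -1.55 without the sparse libraries. The value was therefore of similar size in both batches, those in batch B resting on the libraries with contradicting labels. Gata3 had -1.17 (SE 0.30, interval -1.86 to -0.48, unadjusted p = 0.00397, edgeR adjusted p = 1), with a DESeq2 adjusted p of 0.0307, and was at -1.58 within batch A and -0.84 within batch B. Lck had -0.69 (SE 0.22, interval -1.18 to -0.20), or -0.61 within batch A and -0.75 within batch B. Thy1 was at -0.87 (SE 0.36), with -0.44 within batch A and -1.16 within batch B, and Bcl11b at -0.62 (SE 0.27), with -1.22 and -0.12. Without WT/WT replicate 1 the value for Bcl11b was -0.11. Ptcra was at -8.23 (SE 4.22, DESeq2 adjusted p = 0.00521), with -0.60 within batch A and -11.28 within batch B, where both WT/R249C libraries were at 0, and with -4.71 without replicate 4 and -4.86 without replicate 5.

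**Figure D4:**
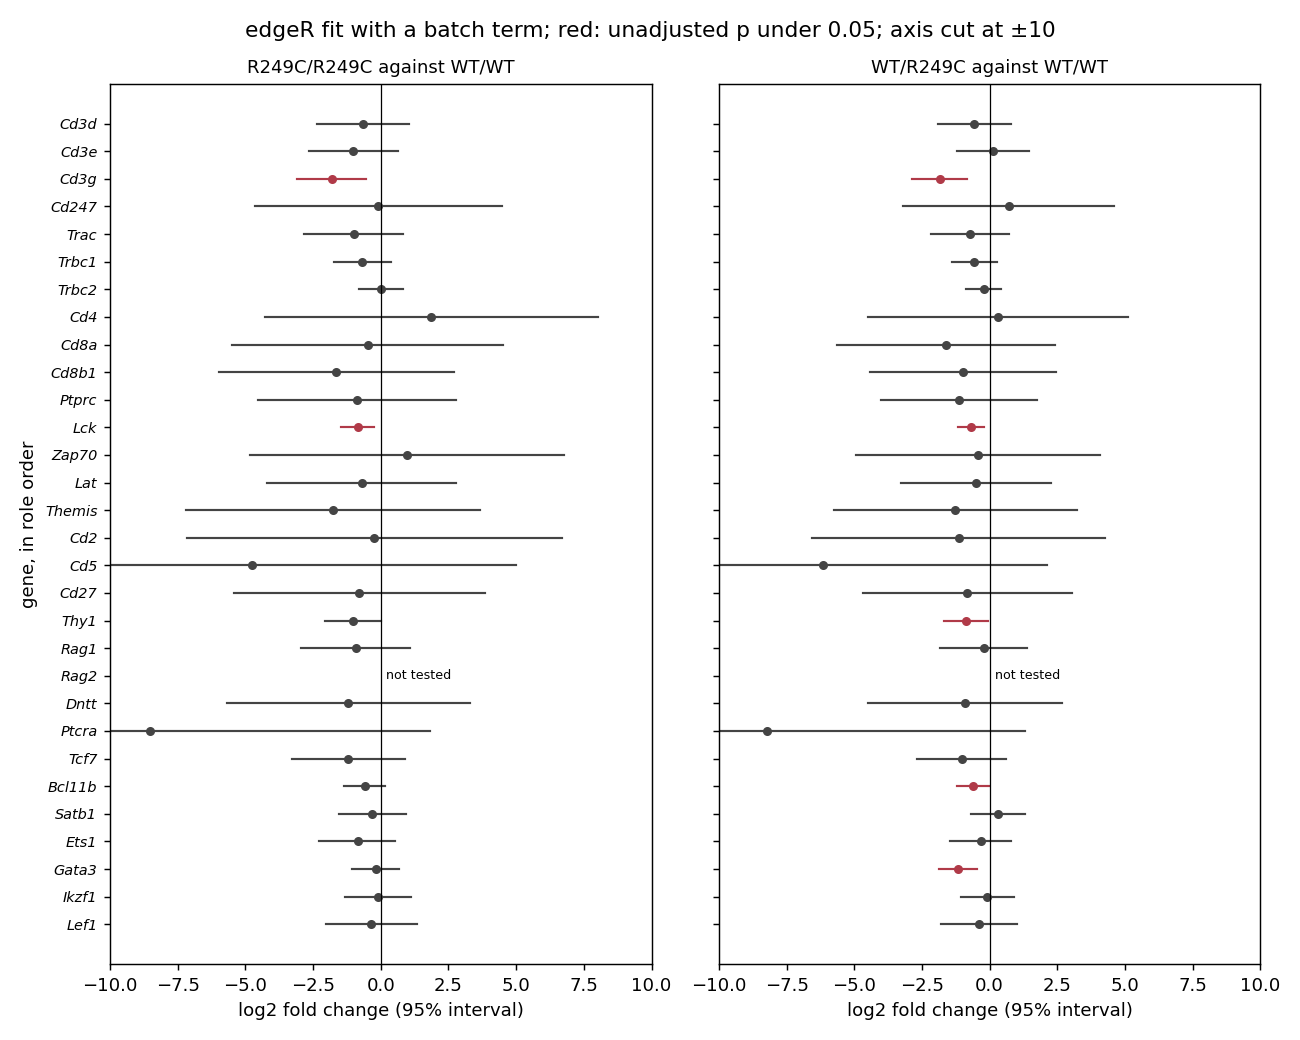
Log2 fold change (points) with its 95% interval (lines) for each of the 30 genes, in role order, in R249C/R249C (left) and WT/R249C (right) against WT/WT, from the edgeR fit with a batch term; red marks an unadjusted p under 0.05, and the axis ends at ±10, beyond which the intervals of Ptcra and Cd5 run. Cd3g and Lck are red on both sides, at -1.82 and -0.86 on the left and -1.85 and -0.69 on the right, and Rag2 was not tested.

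Between the variant genotypes the 30 genes showed no common direction. In the 6 libraries of batch A, R249C/R249C summed to 541.3 ± 120.4 CPM (SD, n = 3) and WT/R249C to 581.6 ± 154.2 CPM (SD, n = 3), a ratio of 0.931. edgeR called 0 of 29 genes, where it called 0% of all 23695 genes, DESeq2, which called 0.157% of all genes, and limma voom also called 0 of them, and 1 gene had an unadjusted p under 0.05, higher in R249C/R249C, against 0.506% of all genes in that direction. That gene was Gata3, at 43.6 ± 11.4 CPM in R249C/R249C and 20.5 ± 5.91 CPM in WT/R249C (SD, n = 3 each), a log2 fold change of 1.10 (SE 0.36, interval 0.22 to 1.98, unadjusted p = 0.0225, edgeR adjusted p = 1, DESeq2 adjusted p = 0.571). Fold changes were below 0 for 17 genes, or 58.6% against 49.2% of all genes, and above 0 for 12, with a median of -0.10 against 0.01 for all genes. Gata3, Cd8a and Zap70 did not overlap and were higher in R249C/R249C, against 3.45% of all genes, and 0 genes were lower without overlap, against 5.41%. Cd3e, at 7.23 ± 3.82 against 15.9 ± 8.27 CPM (SD, n = 3 each), had a log2 fold change of -1.06 (SE 0.66). It was -0.64 without the sparse WT/R249C replicate 3 and -0.66 without R249C/R249C replicate 3. Satb1 had -0.70 (SE 0.56), and it was -0.05 without WT/R249C replicate 3, -0.43 without R249C/R249C replicate 3 and -1.07 without R249C/R249C replicate 1. Cd3g was at 0.07 (SE 0.60, unadjusted p = 0.916).

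Whether the effect of 1 variant copy differed between the batches was tested as an interaction in the 8 WT/WT and WT/R249C libraries. edgeR called 0 of 29 genes, where it called 0% of all genes, and 2 genes, Lef1 and Ptcra, had an unadjusted p under 0.05, against 3.91% of all genes. For Lef1, a partner of Tcf7, the log2 effect was 2.26 higher in batch B (SE 0.55, unadjusted p = 0.00656, edgeR adjusted p = 0.983, DESeq2 adjusted p = 0.0358). Its values were 47.3 CPM in the WT/WT library and 15.1 to 18.5 CPM in WT/R249C in batch A, and 28.6 and 24.4 against 28.5 and 53.4 CPM in batch B. Ptcra differed by -10.49 (SE 2.91, DESeq2 adjusted p = 0.0138). limma voom called 0 genes of the whole table in this test, and DESeq2 called 3.26%.

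A wider list of 36 genes held T cell signalling genes, cytokine and homing receptors and regulators, and 35 were tested. By median fold change it lay nearer to all genes than the 30 genes did. In R249C/R249C against WT/WT, 22 had a fold change below 0 and 13 above, with a median of -0.15. edgeR, DESeq2 and limma voom called 0. At an unadjusted p under 0.05 there was 1 gene, lower, against 1.51% of all genes in that direction. In 6 genes every R249C/R249C library lay below every WT/WT library, against 4.68% of all genes. In 2 genes every one lay above, against 3.42%. The 30 genes had 5 and 2 such genes. In WT/R249C the numbers were again 22 and 13, with a median of -0.18 and 0 calls by edgeR and limma voom. There was 1 gene at an unadjusted p under 0.05, lower, against 1.57% of all genes in that direction. DESeq2 made 1 call lower, against 0.495%. Groups did not overlap in 2 genes, lower in WT/R249C, against 1.83% of all genes, and in 0 genes higher, against 1.10%. Vav1, a signalling protein downstream of the receptor in blood cells, was at 49.4, 23.8 and 20.1 CPM in WT/WT, at 3.47, 6.7, 22.5, 7.83 and 7.25 CPM in WT/R249C, and at 13.4, 6.0 and 4.13 CPM in R249C/R249C. The R249C/R249C libraries were below all WT/WT libraries, and among WT/R249C only replicate 3 overlapped them. Its log2 fold change was -2.32 (SE 0.77, unadjusted p = 0.0143, edgeR adjusted p = 1) in R249C/R249C and -1.85 (SE 0.60, unadjusted p = 0.0127, edgeR adjusted p = 1) in WT/R249C. Notch1, the receptor that starts the T cell programme and is used by many tissues, was at -0.82 (SE 0.43) in R249C/R249C and -0.55 (SE 0.34) in WT/R249C. Ptpn22, a phosphatase of receptor signalling, was at 0.75 (SE 0.46) and 0.55 (SE 0.36). Ccr9, a homing receptor of thymocytes, was at 2.34 (SE 1.64) in R249C/R249C, and Cd96, a receptor of T and NK cells, at -4.85 (SE 3.01) in WT/R249C, where it averaged 0.146 ± 0.256 CPM (SD, n = 5) against 3.2 ± 0.745 CPM (SD, n = 3).

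Markers of other cell types were read beside these genes, and their part in the results above was not tested. A list of 9 genes shared by most white blood cells summed to 797.0 ± 284.3 CPM in WT/WT (SD, n = 3), 786.0 ± 180.9 CPM in WT/R249C (SD, n = 5) and 791.8 ± 195.7 CPM in R249C/R249C (SD, n = 3). WT/WT replicate 1, which had the highest sum of the 30 genes, had the lowest sum of this list, 484.8 CPM. The 10 B cell markers summed to 1475.8 to 3077.6 CPM in WT/WT, to 122.1 to 605.6 CPM in WT/R249C and to 300.1 to 592.4 CPM in R249C/R249C, so that WT/WT lay above both variant genotypes without overlap, as for Cd3g. edgeR and limma voom called 0 of the 10 in either comparison. DESeq2, which gave an adjusted p for 7 of them, called 2 lower in R249C/R249C and 1 in WT/R249C. The shares of all genes were 0.997% and 0.495%. Unadjusted p was under 0.05 for 3 and 2 of the 10, all lower, against 1.51% and 1.57% of all genes. Most of that sum was Igkc, an antibody light chain gene, and Jchain, a gene of antibody-secreting cells. Ms4a1, a surface marker of B cells, was at 2.17, 5.18 and 0.636 CPM in WT/WT. It was at 0 in 6 libraries, all of variant genotype, among them every R249C/R249C library. Ms4a1 and Igkc were the 2 DESeq2 calls in R249C/R249C, and Ms4a1 was at most a few CPM anywhere. The 12 epithelial markers summed to 28547.4 ± 4561.8 CPM in WT/WT (SD, n = 3), 31283.5 ± 3953.0 CPM in WT/R249C (SD, n = 5) and 34398.7 ± 5220.2 CPM in R249C/R249C (SD, n = 3), with overlap. Most of that sum was Cd74, at 21427.6 of 28547.4 CPM in WT/WT. Taken gene by gene, 11 of the 12 had a fold change above 0 in each variant genotype against WT/WT, while most of the 30 T cell genes were below 0. The medians were 0.44 in R249C/R249C and 0.32 in WT/R249C. Of all 26980 genes, 13229 and 13895 were above 0 in these comparisons. edgeR, DESeq2 and limma voom called 0 of the 12. In each comparison 2 had an unadjusted p under 0.05, all higher, Krt8 and Foxn1 in R249C/R249C and Krt8 and Epcam in WT/R249C. Of all 26980 genes, 458 and 516 were higher at that threshold. The 6 fibroblast markers summed to 860.3 to 2319.0 CPM with overlap, and most of that was Dcn, at 985.8 of 1698.5 CPM in WT/WT. In WT/R249C against WT/WT, 5 of the 6 had a fold change below 0, against 48.5% of all genes, with a median of -1.68. Most of the T cell genes were also below 0. Col1a2, at 105.7 ± 33.2 CPM in WT/WT (SD, n = 3) and 28.8 ± 13.9 CPM in WT/R249C (SD, n = 5), did not overlap, against 1.83% of all genes. Col1a2 and Col3a1 had an unadjusted p under 0.05, both lower, against 1.57% of all genes in that direction. edgeR, DESeq2 and limma voom called 0 of the 6. Thy1, which fibroblasts also express, was at -0.87 in that comparison. In R249C/R249C against WT/WT, 2 of the 6 were below 0, against 51.0% of all genes, and 4 above, with a median of 0.05, while Thy1 was at -1.02. The 10 myeloid markers summed to 52.3 to 286.6 CPM, the 5 endothelial markers to 58.2 to 263.5 CPM and the 5 erythroid markers to 7.56 to 232.7 CPM, all overlapping between genotypes. The 6 markers of NK and innate lymphoid cells reached at most 4.91 CPM, and Ncr1 was at 0 in all 11 libraries.

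**Figure D5:**
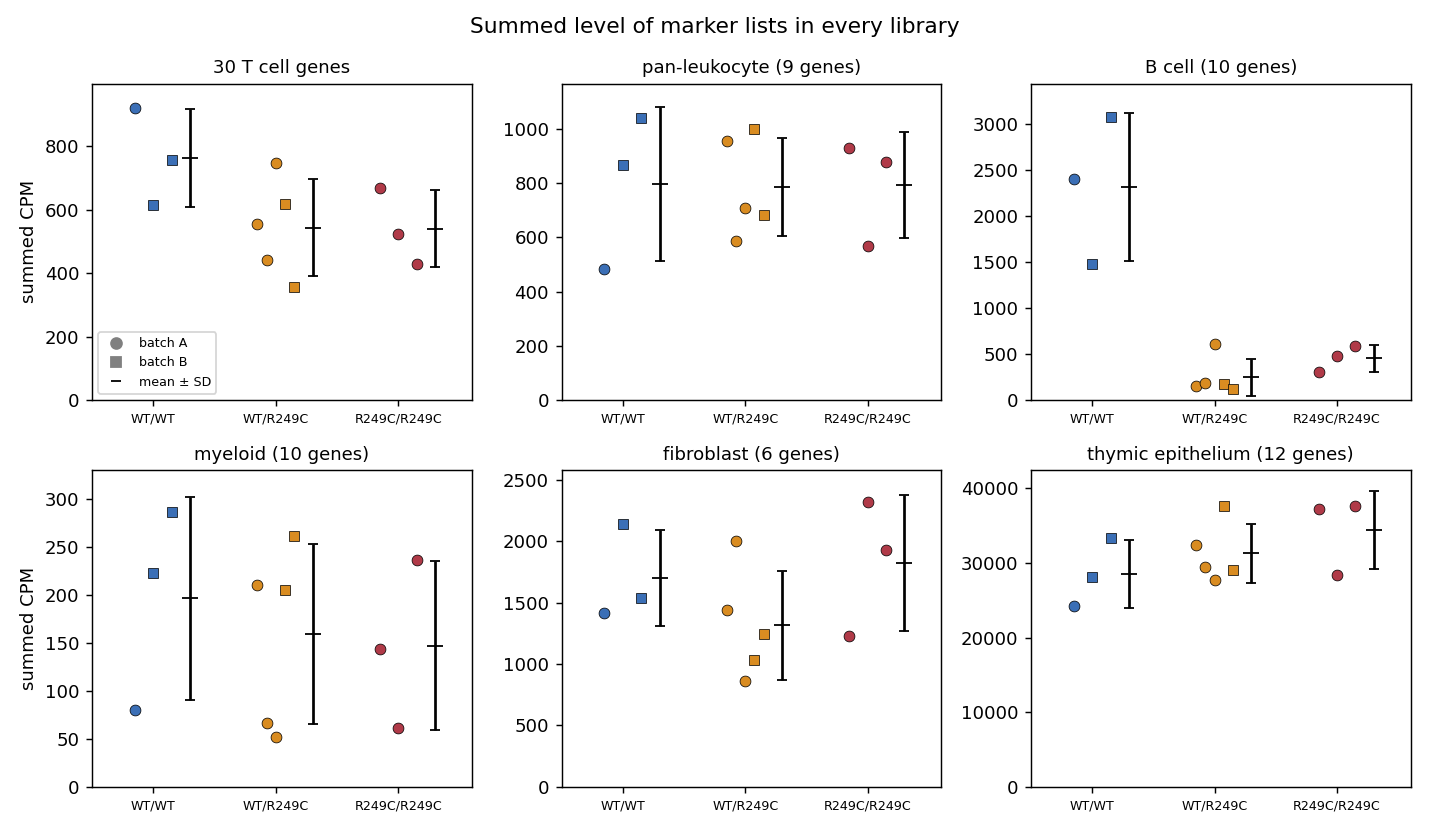
Summed CPM of the 30 T cell genes and of 5 marker lists in every library, by genotype (circles batch A, squares batch B), with the mean and SD as a black bar beside each group. The B cell sum is at least 1475.8 CPM in WT/WT and at or below 605.6 CPM in the variant libraries, while the other panels overlap between genotypes.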

How the data were processed

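The authors deposited 1 table of raw whole-number counts for every gene in each library. The tools were HISAT2, StringTie and FastQC, and the build was mm39, per the submitters' processing notes. Their versions, the annotation release, the strand setting and how counts were made from the alignments are not given in the sources used here. Per the labels' protocols, libraries came from low-input RNA, and column names of batch A alone carry the word trimmed. Ensembl identifiers were matched to symbols for 52073 of 56691 genes, which held at least 99.664% of each library's counts, and all 129 listed genes matched.

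CPM were taken over column totals. The main test, in R 4.3.3, was the two-sided quasi-likelihood test of edgeR 4.0.16 (robust, TMM scaling, filterByExpr, Benjamini-Hochberg adjustment over all genes tested, threshold 0.05). WT/WT was compared with each variant genotype in 1 fit that included a batch term and every library. Fold changes are thus adjusted for batch, and CPM means are not. All R249C/R249C libraries are in batch A. Alternatives were limma voom 3.58.1 (quality-weighted), DESeq2 1.42.0, other scaling, no filtering, the contested labels, batch handling, a replicate block and leaving out each library. The fits were tested on simulated data. Reads carry no molecular identifiers. Since no source says how mice were divided among libraries, p-values measure the spread between these libraries.

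The 30 genes and the lists were chosen with earlier results of these data known. Named with full statistics were the 6 genes of lowest unadjusted p in each comparison with WT/WT, 3 between the variant genotypes, and 4 of the wider T lineage list per comparison with WT/WT. Motif letters were searched in RefSeq promoter windows of GRCm38.p6. Values of some single genes of the wider lists are not reported here.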

Additional observations from a re-analysis of the deposited data

Results flagged for a closer look

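In 4 of the 31 sets of 5 WT/R249C values examined, the 30 genes and their sum, 1 library lay so far from the others that the gap to its nearest neighbour, divided by the range, exceeded Dixon's critical value of 0.71. Chance flags about 1 in 20 such sets. WT/R249C replicate 3, a sparse library, stood high for Cd3e at 25.3 CPM (gap over range 0.756), for Themis at 37.0 CPM (0.817) and for Rag1 at 37.1 CPM (0.897). In the same library Cd4, Cd8a, Zap70, Cd2 and Cd5 were at 0. WT/R249C replicate 1 stood high for Cd5 at 2.15 CPM (0.989), where 3 of the other 4 were at 0.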

How the results depend on the processing

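edgeR called 0 genes of the whole table in each comparison under every alternative run with it, leave-one-out fits included (0 to 0), and limma voom called 0, while DESeq2 called 408 genes in R249C/R249C and 276 in WT/R249C against WT/WT, 33 between the variant genotypes and 810 for the difference between batches; the cause was not tested. Cd3g kept its sign in R249C/R249C (-1.98 to -1.41 over 21 alternatives) and in WT/R249C (-2.03 to -1.55 over 22), as did Lck (-1.07 to -0.58 and -0.75 to -0.37) and Gata3 in WT/R249C (-1.74 to -0.83). DESeq2 put Ptcra in R249C/R249C (-8.79) and Cd3g (-1.89), Gata3 (-1.21) and Ptcra (-8.54) in WT/R249C past the threshold. Bcl11b in R249C/R249C reversed to 0.14 without WT/WT replicate 1, its leave-one-out range being -0.73 to 0.14. By the replicate numbers of the titles, deviations of same-numbered libraries correlated from -0.129 to 0.129, and those of different-numbered libraries from -0.0885 to 0.214. Between the variant genotypes within batch A, same-numbered libraries correlated at 0.129, 0.0811 and 0.0286, and different-numbered ones from -0.0885 to 0.0435. These ranges do not settle whether libraries were paired. The library numbers of the descriptions differ from the title numbers for WT/WT, and pairing by the description numbers was not tested. With a replicate block edgeR called 0 genes in the 3 genotype comparisons, and Ptcra in WT/R249C reversed to 0.71. The block also moved the median of all genes to 0.30 in R249C/R249C and 0.33 in WT/R249C, where the 30 genes stood at -0.53 and -0.36. The log2 ratio of the summed CPM ran from -0.77 to -0.34 in R249C/R249C and from -0.67 to -0.33 in WT/R249C against WT/WT, and from -0.29 to 0.12 between the variant genotypes. With WT/R249C replicates 4 and 5 left out, Cd3g was at -1.95 in R249C/R249C and -2.01 in WT/R249C, and with them counted as R249C/R249C at -1.82 and -1.92. Genes under a few CPM, such as Rag2, Ptcra and Cd5, are limited by zeros in single libraries.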

Other observations

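The rearranging segments of the T cell receptor genes, were looked at after the constant genes had been seen. The 128 alpha variable segments summed to 2.07 to 5.77 CPM in WT/WT, to 1.04 to 4.78 CPM in WT/R249C and to 0.0761 to 4.11 CPM in R249C/R249C. The number of alpha variable segments with a count was between 3, in R249C/R249C replicate 3, and 55, in WT/R249C replicate 1. The 35 beta variable segments summed to 6.57 to 9.97 CPM in WT/WT, to 3.09 to 10.8 CPM in WT/R249C and to 1.16 to 8.7 CPM in R249C/R249C, with between 2 and 22 segments counted. The genotypes overlapped for both.

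The 15 gamma chain genes summed to 18.4, 1.34 and 14.6 CPM in WT/WT, to 0.731, 5.11, 0, 1.01 and 2.54 CPM in WT/R249C, and to 1.85, 4.61 and 5.18 CPM in R249C/R249C. WT/WT replicates 1 and 3 were the highest of all libraries, and WT/WT replicate 2 lay among the variant libraries. Trdc, the constant gene of the delta chain, was at 33.2 CPM in WT/R249C replicate 3 and at most 4.97 CPM in every other library. These values were not tested.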
